A study of Arabidopsis thaliana with 9 samples.

Results

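The pwr-2 and hda9-1 mutants of Arabidopsis thaliana were compared directly, 3 libraries against 3, over 20171 genes that passed a filter on low counts, of 29420 gene identifiers in the deposited table. The series holds 9 libraries of polyA RNA, of which the 6 mutant libraries make this comparison and the 3 of the wild type show where the unmutated level lies. All plants were of the Col ecotype. The pwr group carried the pwr-2 allele, the hda9 group the hda9-1 allele, and the WT group neither. Every library came from whole seedlings aged 10 days that had grown on MS agar at 23 °C with 16 h of light and 8 h of dark, and the design text calls the 3 replicates of each genotype biological. The labels do not say what lesion either allele carries.

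HDA9 is a histone deacetylase of the RPD3 type, an enzyme that takes acetyl groups off histone tails and whose loss leaves acetylation higher at the genes it acts on. PWR (POWERDRESS) is a SANT-domain protein that binds HDA9. The series' title presents the pair as interacting proteins that act together on histone H3, so the direct comparison asks where seedlings that lack one partner differ from seedlings that lack the other. Because the libraries come from whole seedlings, fewer cells of a type and less RNA per cell cannot be told apart in any value below.

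The total count per library lay between 6450661 and 11150773, and the third hda9 library was the smallest. That library also stood apart from the other hda9 libraries on the second principal component of log2 CPM (16.7% of the variance), at -32.3 against 20.9 and 20.1, while the first component (50.6%) separated the mutants from WT. CPM is a library's counts scaled to 1e+06 counts in all, after its TMM factor is applied. The median SD of log2 CPM between replicates was 0.0820 in pwr, 0.118 in hda9 and 0.0805 in WT. No member of the root, shoot meristem, stomatal or floral lists was called, and their median log2 fold changes, pwr over hda9, were -0.07, 0.07, 0.06 and -0.13. Leaving out 1 library moved them, since root was 0.017 and shoot meristem -0.012 without hda9 replicate 1, floral was 0.20 without hda9 replicate 2, and stomatal was 0.015 without hda9 replicate 3. The 9 tested root markers summed to 229 to 237 CPM in pwr, 224 to 233 CPM in hda9 and 218 to 229 CPM in WT. The other 10 of the 19, among them PLT1, PLT2 and RHD6, were too low to test. The 14 stomatal markers summed to 371 to 396 CPM in pwr, 353 to 374 CPM in hda9 and 455 to 466 CPM in WT. Of 17 seed maturation genes 2 were high enough to test, and CRB, LEC1, SESA3 and SESA4 had no count in any library.

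The transcripts of the mutated genes checked the labels. HDA9 (AT3G44680, chr3:16226519-16230009) had 35.7, 31.2 and 31.0 CPM in pwr, against 7.16, 7.40 and 6.56 CPM in hda9, and 38.4, 39.3 and 36.5 CPM in WT. The hda9 libraries were thus the low ones, and they kept 40 to 68 counts each. The log2 fold change, pwr over hda9, was 2.20 (SE 0.09, adjusted p = 1.88e-07). PWR (AT3G52250, chr3:19376138-19383369) had 43.5, 57.2 and 45.5 CPM in pwr, against 188, 198 and 188 CPM in hda9, and 145, 144 and 133 CPM in WT. It was lowest in the pwr libraries and higher in hda9 than in WT, where the log2 fold change, hda9 over WT, was 0.44 (SE 0.08, adjusted p = 0.0015). The log2 fold change of PWR, pwr over hda9, was -1.97 (SE 0.09, adjusted p = 2.03e-07). Neither pair of mutant groups overlapped, so each library carried a reduced transcript of the gene its label names. Of the 19 other deacetylase, partner and acetyltransferase genes measured, none was called and none had an unadjusted p under 0.05.

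Few genes were called between the mutants. Of the 20171 genes, 85 were called at an adjusted p under 0.05 (0.421% of those tested), by edgeR's quasi-likelihood test with Benjamini-Hochberg adjustment, which gives the adjusted p-values of this text. The called genes were 63 higher in pwr (0.312%) and 22 lower in pwr (0.109%). In the same model 31.4% of genes were called between pwr and WT and 34.2% between hda9 and WT. The median absolute log2 fold change over all genes was 0.0882 between the mutants, against 0.173 for pwr over WT and 0.181 for hda9 over WT. For 19 of the 85 called genes (0.0942% of genes tested) the log2 fold change was at least 1 in size, and the median size was 0.56. The pwr and hda9 groups did not overlap for any of the 85, nor for 3603 of all tested genes (17.9%). Before adjustment 2724 genes had p under 0.05 (13.5%), of which 1442 were higher in pwr and 1282 lower.

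The count of called genes moved widely with the choice of libraries. It was 9 without pwr replicate 1, 11 without pwr replicate 2, 252 without pwr replicate 3, 10 without hda9 replicate 1, 11 without hda9 replicate 2, 49 without hda9 replicate 3, 97 without WT replicate 1, 27 without WT replicate 2 and 148 without WT replicate 3. All 85 genes kept their direction in each of these fits. Their pwr and hda9 groups did not overlap, so leaving out a library could hardly have reversed a direction. The genes called in all 9 of them were 8: HDA9, PWR, MRD1, HEI10, YSL1, XTH31, AT5G11330 and AT5G15420. Every other call ended without pwr replicate 1, without hda9 replicate 2 or without either of them.

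The WT mean was above, between or below the mutants' means. Of the 63 genes higher in pwr, the WT mean was above both mutants for 32, between them for 21 and below both for 10. Of the 22 genes lower in pwr, the WT mean was below both mutants for 14, between them for 8 and above both for 0. These are orders of group means, with no test against WT, and they include genes such as MRD1 and HEI10 whose pwr and WT levels lie close together.

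**Figure D1:**
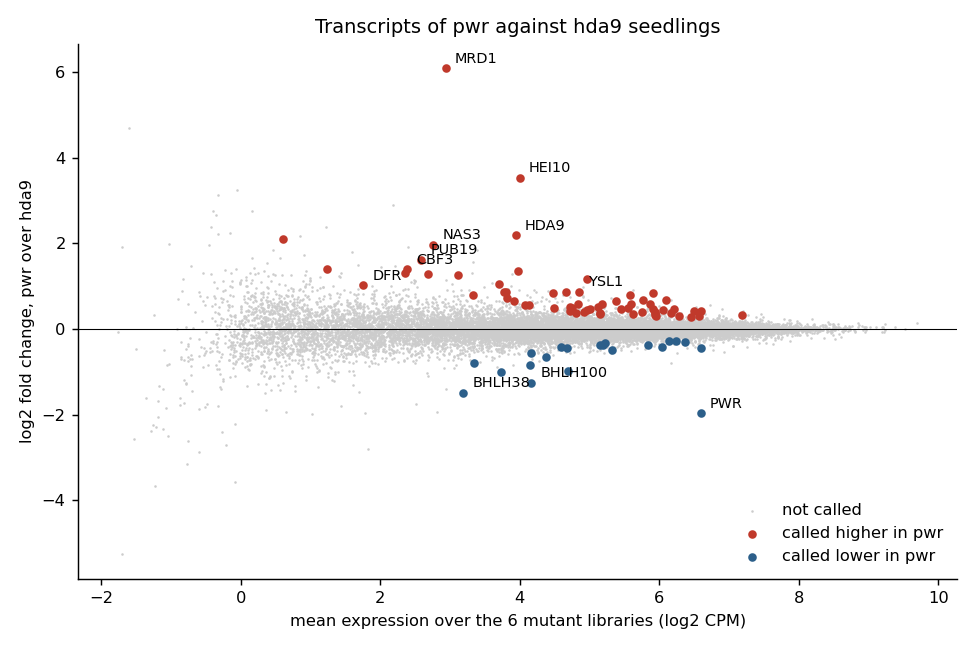
Log2 fold change, pwr over hda9 (vertical axis), against mean log2 CPM over the 6 mutant libraries (horizontal axis) for the tested genes, with called genes in colour. AT5G15420, which had no count in pwr or WT, is left out because its fitted fold change has no scale. Among the called genes drawn, MRD1 (6.09), HEI10 (3.53) and HDA9 (2.20) are the highest, and PWR (-1.97) and BHLH38 (-1.49) the lowest.

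Among called genes other than the mutated ones, the largest differences lay at 2 places in the genome, where hda9 differed from both pwr and WT. MRD1 (AT1G53480, chr1:19963047-19964712, minus strand), named for its fall in a methionine over-accumulating mutant, had 59.7, 57.5 and 51.5 CPM in pwr, against 0.842, 0.552 and 1.15 CPM in hda9, and 60.1, 57.5 and 59.6 CPM in WT. On the log2 scale pwr over hda9 was 6.09 for MRD1 (SE 0.14, adjusted p = 3.97e-10), and pwr over WT was -0.07 (adjusted p = 0.42). HEI10 (AT1G53490, chr1:19963267-19966952, plus strand), which encodes an E3 ligase of meiotic crossovers, had 58.3, 55.1 and 52.5 CPM in pwr, against 5.69, 5.08 and 2.95 CPM in hda9, and 58.5, 56.0 and 61.0 CPM in WT. For HEI10 this fold change was 3.53 (SE 0.12, adjusted p = 2.43e-08).

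The 2 genes overlap on opposite strands, and 89.8% of the exon bases of MRD1 and 41.3% of those of HEI10 are shared with another annotated gene. The strand setting of the counting is not given in the sources used here, so the 2 genes' reads cannot be told apart. Their neighbours were not called. MSL4, a mechanosensitive channel gene on the MRD1 side, had a log2 fold change of 0.55 (adjusted p = 0.120), and MUM4, which follows HEI10, had 0.09 (adjusted p = 0.605). MRD1 and HEI10 were the only adjacent genes called in 1 direction with a log2 fold change of at least 1, and no run of 3 or more such genes was found.

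AT5G15420 (chr5:5007826-5008964), a locus with no name in the annotation used and singled out here after its values were seen, went the other way. It had 0 counts in all 3 pwr libraries and all 3 WT libraries, against 43, 58 and 36 counts in hda9, or 4.53, 6.41 and 5.90 CPM. Taking 3 counts over the group as the floor, its level in hda9 was at least 48.6-fold higher than in pwr and at least 56.7-fold higher than in WT. The adjusted p was 0.0037 between the mutants. Its neighbours on either side, DND1, a cyclic nucleotide-gated channel gene, and AT5G15430, were not called (adjusted p = 0.648 and 0.299).

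Iron genes formed the largest group of called genes among the 29 lists used. Plants short of iron switch on a small family of bHLH transcription factors (subgroup Ib: BHLH38, BHLH39, BHLH100 and BHLH101), which raise the reductases and transporters of iron uptake, while ferritins, the iron stores, fall. Nicotianamine, made by NAS enzymes, binds iron and other metals for transport through the phloem, and YSL proteins move the complex across membranes. The lists were chosen with earlier results of these data known. Of 23 iron deficiency genes 21 were tested, of which 4 fell in pwr relative to hda9 and 1 rose, where 0.421% of all genes were called. A further 8 had an unadjusted p under 0.05 without passing the adjustment, so that 13 of 21 had one (61.9%, against 13.5% of all genes): 9 lower in pwr and 4 higher. The list's median log2 fold change was -0.13, against -0.01 over all genes. Without hda9 replicate 1, hda9 replicate 2 or pwr replicate 1, none of the 21 was called, and the median was -0.15, -0.14 and -0.12. With hda9 replicate 3 left out 1 rose and 1 fell, without pwr replicate 2 1 fell, and without WT replicate 2 there were 2 falls.

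All 4 subgroup Ib factors had lower means in pwr than in hda9, and lower ones still in WT, and 3 of them passed the test. BHLH38 (AT3G56970, chr3:21084035-21085245) had 4.43, 6.88 and 4.67 CPM in pwr, against 15.5, 14.4 and 15.4 CPM in hda9, and 1.99, 3.46 and 3.54 CPM in WT. Its groups did not overlap, and its log2 fold change was -1.49 (SE 0.20, adjusted p = 0.0151; 35.7% of its exon bases are shared with another gene). BHLH100 (AT2G41240, chr2:17198037-17199454) had 9.36, 11.7 and 13.4 CPM in pwr, against 26.7, 26.3 and 29.8 CPM in hda9, and 4.45, 7.70 and 9.45 CPM in WT, and its log2 fold change was -1.25 (SE 0.19, adjusted p = 0.0225). BHLH101 (AT5G04150, chr5:1138410-1139633) fell less, to 14.9, 17.1 and 17.1 CPM in pwr, against 25.7, 24.3 and 27.9 CPM in hda9, and 7.86, 11.3 and 11.1 CPM in WT. The log2 fold change was -0.66 (SE 0.13, adjusted p = 0.0497), and the call ended with upper-quartile factors, loess offsets or a filter of 1 CPM in 3 libraries, where the adjusted p was at most 0.057.

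BHLH39 (AT3G56980, chr3:21086390-21087710) had 5.54, 4.08 and 4.21 CPM in pwr, against 11.9, 12.2 and 12.3 CPM in hda9, and 1.14, 1.64 and 4.49 CPM in WT. The groups of the mutants did not overlap either, but its log2 fold change of -1.40 (SE 0.31) missed the threshold with an adjusted p of 0.0761. Leaving out 1 library ended the call of BHLH38 in 3 of 9 fits (pwr replicate 1, hda9 replicates 1 and 2; adjusted p up to 0.105), that of BHLH100 in 5 (pwr replicates 1 and 2 and each hda9 replicate; up to 0.164) and that of BHLH101 in 7 (every library but WT replicates 1 and 3; up to 0.239).

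The sequences before these 4 genes are shown because the factors form 1 subgroup, of which 3 members were called. Each is the 250 bases upstream of the RefSeq gene start in assembly TAIR10.1, 5′ to 3′ on the gene's own strand, which is the minus strand for all 4, with the G-box hexamer CACGTG in capitals. The windows are chr3:21085246-21085495 for BHLH38, chr3:21087711-21087960 for BHLH39, chr2:17199455-17199704 for BHLH100 and chr5:1139634-1139883 for BHLH101.
BHLH38: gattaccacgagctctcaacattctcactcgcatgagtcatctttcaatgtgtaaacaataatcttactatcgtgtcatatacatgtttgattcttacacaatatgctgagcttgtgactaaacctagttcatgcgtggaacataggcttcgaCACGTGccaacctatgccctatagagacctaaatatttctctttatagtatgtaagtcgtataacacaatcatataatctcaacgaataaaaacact
BHLH39: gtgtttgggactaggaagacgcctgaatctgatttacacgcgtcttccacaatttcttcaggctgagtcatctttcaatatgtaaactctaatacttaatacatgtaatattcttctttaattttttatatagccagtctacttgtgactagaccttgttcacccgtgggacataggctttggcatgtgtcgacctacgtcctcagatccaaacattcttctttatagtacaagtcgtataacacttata
BHLH100: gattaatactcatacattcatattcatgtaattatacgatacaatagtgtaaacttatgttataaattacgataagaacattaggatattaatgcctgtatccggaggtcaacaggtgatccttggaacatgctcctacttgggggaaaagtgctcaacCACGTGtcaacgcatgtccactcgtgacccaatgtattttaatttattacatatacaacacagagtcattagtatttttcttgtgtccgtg
BHLH101: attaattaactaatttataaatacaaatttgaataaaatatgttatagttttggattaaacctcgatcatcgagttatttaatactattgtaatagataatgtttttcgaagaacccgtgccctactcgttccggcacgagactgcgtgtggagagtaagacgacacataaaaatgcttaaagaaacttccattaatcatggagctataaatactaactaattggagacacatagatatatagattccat
The hexamer, which reads the same on both strands, occurred once before BHLH38, 97 bases from the gene start, and once before BHLH100, 91 bases from it, and these letters are not in the windows of BHLH39 or BHLH101. Of all 26697 promoter windows of this length 1757 held it (6.58%), as did 6 of the 21 windows of tested iron list genes (28.6%). The other 4 were those of FER3, FER4, OPT3 and BTS, which were not called.

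NAS3 and YSL1 rose in pwr relative to hda9. NAS3 (AT1G09240, chr1:2984829-2986231), a nicotianamine synthase of the shoot, had 18.0, 14.4 and 8.31 CPM in pwr, against 3.05, 1.77 and 6.23 CPM in hda9, and 16.0, 12.8 and 15.9 CPM in WT. The highest hda9 value lay just below the lowest pwr value, both in replicate 3, and the log2 fold change was 1.97 (SE 0.36, adjusted p = 0.0434). Without hda9 replicate 3 it was 2.47 (adjusted p = 0.0309), and the call ended without pwr replicate 1 or 2, hda9 replicate 1 or 2, or WT replicate 2 (adjusted p up to 0.198). YSL1 (AT4G24120, chr4:12524186-12527347), a shoot transporter of nicotianamine with its metals, is not in the list and had the smallest adjusted p of the iron genes named here. It had 41.9, 39.4 and 35.4 CPM in pwr, against 20.9, 22.2 and 20.7 CPM in hda9, and 45.3, 43.8 and 43.1 CPM in WT, so that log2 pwr over hda9 was 0.87 (SE 0.07, adjusted p = 0.000295). The pwr and WT libraries lay close together, and every hda9 library lay far below them.

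The ferritin genes, whose protein stores iron, missed the threshold. FER4 averaged 43.9 ± 1.6 CPM in pwr, 35.1 ± 2.3 CPM in hda9 and 60.4 ± 3.1 CPM in WT (SD, n = 3 each), with a log2 fold change of 0.33 (adjusted p = 0.0555). FER1 averaged 82.6 ± 14 CPM in pwr, 61.3 ± 4.2 CPM in hda9 and 94.0 ± 2.7 CPM in WT, with 0.43 (adjusted p = 0.0868). FER3 averaged 57.6 CPM in pwr, 57.4 CPM in hda9 and 74.2 CPM in WT. NAS1 had a log2 fold change of 0.38 (adjusted p = 0.152) and NAS4 one of 0.02.

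FRO3 (AT1G23020), a ferric reductase of mitochondria, went with the bHLH genes. It had 75.2, 85.3 and 88.0 CPM in pwr, against 104, 115 and 117 CPM in hda9, and 68.2, 64.9 and 56.2 CPM in WT, and its log2 fold change was -0.43 (SE 0.08, adjusted p = 0.0434). That call ended in 6 of the 9 fits without 1 library, those without hda9 replicate 3 (adjusted p = 0.10) and pwr replicate 1 (0.208) included. GRF11, a 14-3-3 protein with a role in the iron deficiency response, fell by 0.56 on the log2 scale (adjusted p = 0.042), a call that was lost in 8 of 9 fits without 1 library and held only without WT replicate 3. AT2G30766 had a log2 fold change of -0.50 and missed the threshold (adjusted p = 0.0543). Other regulators of the list were not called. BTS, an E3 ligase that restrains the response, had a log2 fold change of -0.20, PYE one of -0.13 and FIT, the regulator of root uptake, one of -0.08. The root uptake genes were scarce in these libraries, since FRO2 averaged 2.53 CPM in pwr and 2.03 CPM in hda9 and IRT1 was not tested, with 2 counts over the pwr libraries and 25 over the hda9 libraries, all 25 of them in replicate 1.

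**Figure D2:**
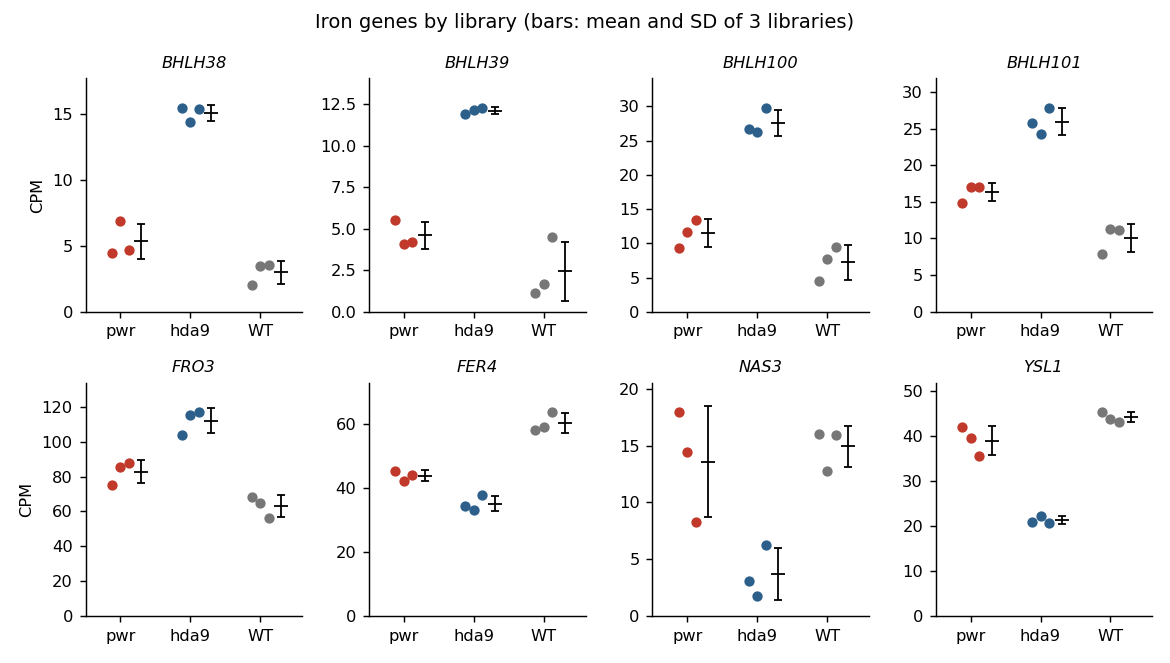
CPM in each library (points), with the mean and SD of each group of 3 (bars), for 8 iron genes, with pwr left of hda9 and WT last in each panel. The pwr libraries lie below the hda9 libraries for BHLH38, BHLH39, BHLH100, BHLH101 and FRO3, and above them for FER4, NAS3 and YSL1, with YSL1 at 35.4 to 41.9 CPM in pwr and 20.7 to 22.2 CPM in hda9.

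Outside the list, 3 more genes of iron use in the chloroplast or of iron-sulfur clusters were called, and they are named here after their values were seen. How many such genes were tested was not counted, so the 3 do not measure the group, and 0.421% of all genes were called. FRO7, a chloroplast ferric reductase, averaged 112 ± 5.4 CPM in pwr, 83.3 ± 2.7 CPM in hda9 and 104 ± 6.9 CPM in WT (SD, n = 3 each), a log2 fold change of 0.42 (adjusted p = 0.0204). NEET, an iron-sulfur protein, had a log2 fold change of 0.38 and ABCI8, a subunit of the chloroplast machinery that assembles iron-sulfur clusters, one of 0.33 (adjusted p = 0.0376 each). All 3 ended without pwr replicate 1 or 2 and without hda9 replicate 1 or 2, with adjusted p of up to 0.187. CGLD27, a gene conserved in green plants and diatoms, fell by 0.28 on the log2 scale (adjusted p = 0.0376), and this call ended in 6 of 9 fits without 1 library.

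CBF3, ZAT6, PUB19, BAP1, LSU1 and CYP81D11 were other genes called higher in pwr. CBF3 (AT4G25480, also DREB1A), a transcription factor that turns on cold-response genes, had 9.97, 8.17 and 6.49 CPM in pwr, against 2.84, 3.76 and 2.62 CPM in hda9, and 18.9, 20.8 and 14.2 CPM in WT. The log2 fold change was 1.39 (SE 0.23, adjusted p = 0.0337), and both mutants were below WT. It was the only called gene of the cold list, in which 15 of 18 genes were tested. Of these, 12 had a positive fold change, against 46.3% of all genes. The list's median was 0.13, against -0.01 over all genes. GOLS3, a galactinol synthase, averaged 7.72 ± 2.8 CPM in pwr, 2.69 ± 0.77 CPM in hda9 and 11.5 ± 1.7 CPM in WT, and its log2 fold change of 1.47 missed the threshold (adjusted p = 0.0539). The sister genes CBF2 (0.98, adjusted p = 0.170) and CBF1 (1.11, adjusted p = 0.360) did so too, while the COR targets lay near 0, with COR15A at 0.13 and COR47 at -0.16.

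ZAT6 (AT5G04340), a stress-induced zinc finger factor, had 29.1, 26.1 and 19.9 CPM in pwr, against 8.85, 7.29 and 13.9 CPM in hda9, and 16.3, 18.2 and 27.7 CPM in WT. Its log2 fold change was 1.37 (SE 0.25, adjusted p = 0.042), and hda9 replicate 3 was the highest of its group, without which the value was 1.63 (adjusted p = 0.0464). PUB19 (AT1G60190), a U-box ubiquitin ligase that dampens the abscisic acid response, had 13.4, 10.1 and 7.40 CPM in pwr, against 3.69, 2.87 and 3.44 CPM in hda9, and 4.17, 6.92 and 7.08 CPM in WT, so that log2 pwr over hda9 was 1.62 (SE 0.27, adjusted p = 0.0337). BAP1 (AT3G61190), an inhibitor of cell death that partners BON1, had 19.0, 19.2 and 17.1 CPM in pwr, against 8.64, 9.17 and 8.85 CPM in hda9, and 5.97, 9.17 and 11.5 CPM in WT. The hda9 values lay within the WT range, and the log2 fold change was 1.05 (SE 0.18, adjusted p = 0.0376).

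LSU1 (AT3G49580), a gene of sulfur limitation, had 12.6, 12.7 and 14.1 CPM in pwr, against 5.69, 5.19 and 5.41 CPM in hda9, and 6.54, 7.35 and 11.1 CPM in WT, so that log2 pwr over hda9 was 1.27 (SE 0.19, adjusted p = 0.0204). CYP81D11, a cytochrome P450 induced by chemical stress, averaged 46.7 ± 13 CPM in pwr, 21.1 ± 3.6 CPM in hda9 and 30.4 ± 4.8 CPM in WT, a log2 fold change of 1.16 (adjusted p = 0.0329). Both groups of LSU1 were tight, whereas the CYP81D11 values in pwr ran from 36.1 to 60.8 CPM. Leaving out 1 library ended the calls of CBF3, PUB19 and BAP1 in 6 of 9 fits each, those of ZAT6 and CYP81D11 in 5 each and that of LSU1 in 4, with adjusted p of up to 0.204. Without hda9 replicate 3 the adjusted p was 0.0935 for CBF3, 0.0760 for PUB19 and 0.0865 for BAP1.

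The touch and wound list and the abscisic acid list held no called gene. In the touch and wound list, 17 of 21 tested genes were positive, against 46.3% of all genes. Of the 17, 10 had an unadjusted p under 0.05, against 13.5% of all genes in either direction. The median log2 fold change was 0.41, and 0.32 to 0.47 over the alternatives. The nearest to the threshold were ERF5, an ethylene response factor, with 41.9 ± 5.7 CPM in pwr, 21.2 ± 1.1 CPM in hda9 and 24.4 ± 8.7 CPM in WT (log2 fold change 0.98, adjusted p = 0.0592), and ZAT10, a zinc finger repressor, with 67.2 ± 6.1 CPM in pwr, 36.0 ± 5.4 CPM in hda9 and 29.4 ± 11 CPM in WT (0.92, adjusted p = 0.0641). The calmodulin-like touch genes TCH2 and TCH3 lay near 0, at -0.03 and -0.05. This list was sensitive to the fit: 6 members were called with only the 6 mutant libraries, 4 by DESeq2, 3 with no low-count filter, 4 without WT replicate 1, 6 without WT replicate 3 and 1 without pwr replicate 3.

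Of 29 abscisic acid and drought genes tested, 18 were positive, 13 with an unadjusted p under 0.05, and 1 was negative with such a p. Over all genes 46.3% were positive, and 13.5% had such a p in either direction. The median was 0.15, and 0.076 without pwr replicate 1. Members called numbered 3 with loess offsets, 2 by DESeq2, 2 without WT replicate 3 and 2 without pwr replicate 3. The catabolic genes CYP707A2, CYP707A3 and CYP707A4, whose enzymes break the hormone down, had log2 fold changes of 0.72, 0.67 and 0.77, and the phosphatase gene HAI2 had 0.91, with adjusted p from 0.0744 to 0.272. CYP707A3 averaged 90.3 CPM in pwr, 56.4 CPM in hda9 and 9.15 CPM in WT. The transcription factors ABF1, ABF2, ABF3 and ABF4 lay between -0.06 and 0.05.

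**Figure D3:**
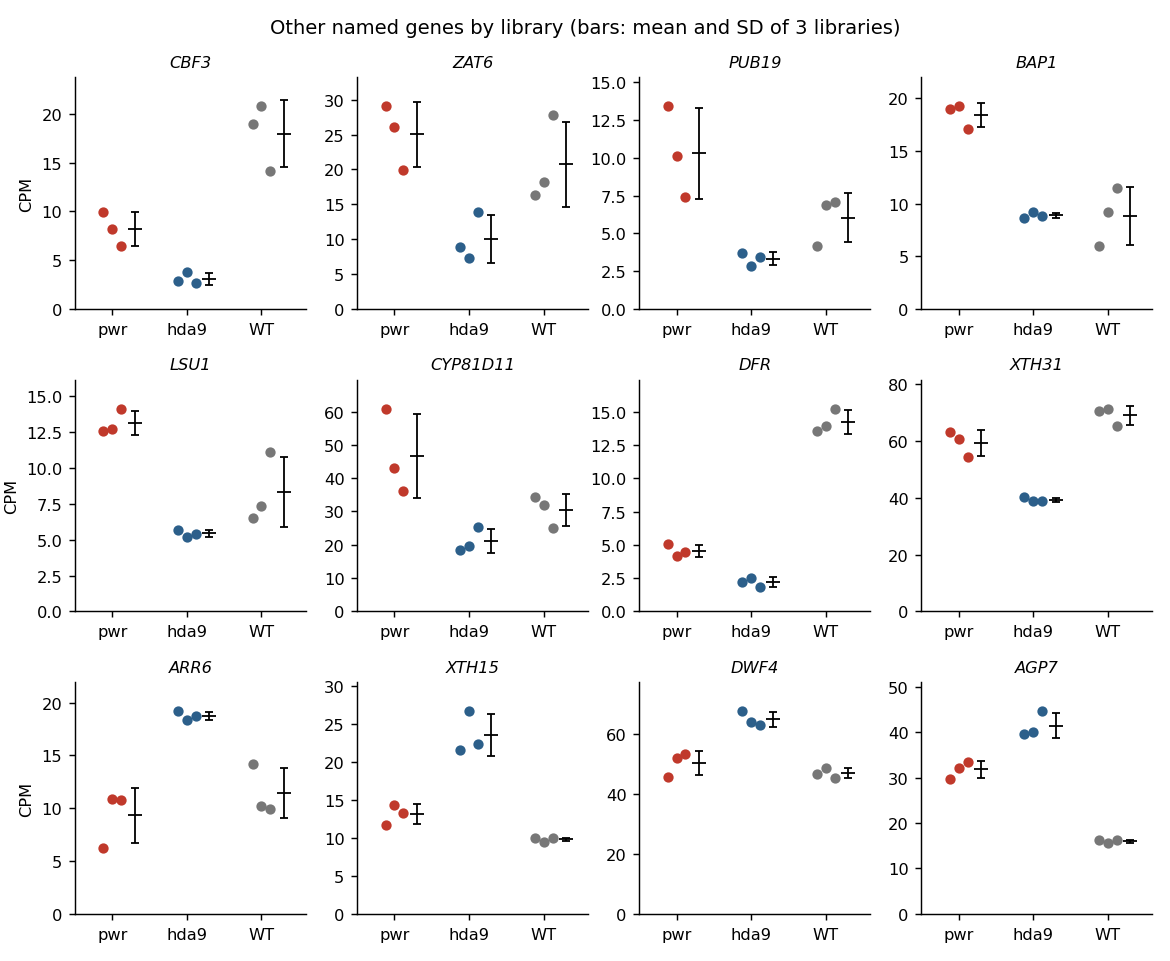
CPM in each library (points), with the mean and SD of each group of 3 (bars), for 12 called genes, with pwr left of hda9 and WT last in each panel. XTH31 was added after its values were seen. The groups pwr and hda9 do not overlap in any panel, nor for any of the other called genes. Lack of overlap was a condition for naming the largest rises and falls, and it holds for 17.9% of all tested genes. WT lies above both mutants for CBF3, DFR and XTH31 and below both for XTH15 and AGP7.

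Of 15 flavonoid and anthocyanin enzymes tested, 1 rose in pwr relative to hda9 and none fell. DFR (AT5G42800), which makes the leucoanthocyanidin precursors of anthocyanin, had 5.05, 4.19 and 4.44 CPM in pwr, against 2.21, 2.54 and 1.80 CPM in hda9, and 13.5, 13.9 and 15.2 CPM in WT. On the log2 scale DFR was higher by 1.03 (SE 0.19, adjusted p = 0.0434), and both mutants were far below WT. All 15 tested genes of the list had a positive fold change, against 46.3% of all genes, 10 of the 15 had an unadjusted p under 0.05, and the median was 0.36. The 15 tested enzymes summed to 284 to 329 CPM in pwr, 243 to 248 CPM in hda9 and 399 to 423 CPM in WT, with no overlap between the groups. Among those that missed the threshold, UGT79B1, which adds a sugar to anthocyanin, averaged 3.0 CPM in pwr, 0.955 CPM in hda9 and 5.33 CPM in WT (log2 fold change 1.72, adjusted p = 0.0557). F3'H, the flavonoid 3'-hydroxylase, had 0.64 (adjusted p = 0.0523), GSTF12, which carries anthocyanin to the vacuole, 0.82 (adjusted p = 0.0635), and CHS, the entry enzyme, 0.34 (adjusted p = 0.132).

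The call of DFR ended with only the 6 mutant libraries, with the replicate block, and in 7 of 9 fits without 1 library, all but those without WT replicate 3 and pwr replicate 3 (adjusted p up to 0.198). The median of the list stayed between 0.28 and 0.40 over all alternatives. The flavonoid regulators, MYB and bHLH factors for the most part, had a median of 0.15 and no call.

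Genes of hormone response and growth were among the other falls. ARR6 (AT5G62920), a type-A response regulator that is induced by cytokinin and feeds back on its signal, had 6.28, 10.9 and 10.8 CPM in pwr, against 19.2, 18.3 and 18.7 CPM in hda9, and 14.2, 10.2 and 9.92 CPM in WT. The log2 fold change was -0.998 (SE 0.19, adjusted p = 0.0499), right at the threshold, and 23.9% of its exon bases are shared. Its relatives ARR7 (-0.43, adjusted p = 0.162) and ARR5 (-0.38, adjusted p = 0.374) were not called, and the other 5 tested lay between -0.09 and 0.10. The call of ARR6 ended with upper-quartile factors, with the filter of 1 CPM and with the replicate block, and in 6 of 9 fits without 1 library (adjusted p up to 0.170).

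XTH15 (AT4G14130), a xyloglucan endotransglucosylase that remodels cell walls, had 11.7, 14.3 and 13.3 CPM in pwr, against 21.6, 26.6 and 22.3 CPM in hda9, and 9.95, 9.51 and 9.92 CPM in WT. Its log2 fold change was -0.84 (SE 0.11, adjusted p = 0.0151; 31.6% of its exon bases are shared), and it lost its call without pwr replicate 1 (adjusted p = 0.101) and without hda9 replicate 2. XTH31 (AT3G44990), of the same enzyme family, went the other way, with 63.1, 60.7 and 54.4 CPM in pwr, against 40.2, 38.9 and 38.8 CPM in hda9, and 70.5, 71.3 and 65.3 CPM in WT. XTH31's log2 fold change was 0.59 (SE 0.07, adjusted p = 0.0037), and it was called in all 9 fits without 1 library. Of the 12 cell wall loosening genes tested, XTH15 was the only one called.

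DWF4, which sets the rate of brassinosteroid synthesis, averaged 50.2 ± 4.1 CPM in pwr, 64.7 ± 2.4 CPM in hda9 and 46.8 ± 1.7 CPM in WT, a log2 fold change of -0.37 (adjusted p = 0.0376). AGP7, an arabinogalactan protein, averaged 31.8 ± 1.9 CPM in pwr, 41.4 ± 2.8 CPM in hda9 and 16.0 ± 0.31 CPM in WT, also -0.37 (adjusted p = 0.0464). SCPL31, a serine carboxypeptidase-like protein, had -0.38 (adjusted p = 0.0404). Each of these 3 calls ended in at least 6 of 9 fits without 1 library, that of AGP7 also with DESeq2.

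No flowering gene was called between the mutants. Of the 29 tested, 34.5% had an unadjusted p under 0.05, against 13.5% of all genes: 4 higher in pwr and 6 lower. With loess offsets 1 was called lower. AGL19, a floral activator repressed through HDA9, averaged 2.82 ± 0.52 CPM in pwr, 2.94 ± 0.76 CPM in hda9 and 1.54 ± 0.35 CPM in WT. The log2 fold change was -0.09, with a 95% interval of -0.62 to 0.44. The intervals here used a normal quantile of the SE, which is narrow for so few libraries. They are not adjusted for the number of genes tested, so an interval without 0 is not a call. FT, the flowering signal of leaves, had 0.23 (interval 0.03 to 0.44, adjusted p = 0.365), SOC1 -0.22 (-0.40 to -0.05, adjusted p = 0.302) and FLC, the vernalization-controlled repressor, -0.23 (-0.64 to 0.18, adjusted p = 0.679; 68.1% of its exon bases are shared with another gene). SPL3, a target of miR156, came nearest among the 29 tested genes of the flowering list, at -0.37 (adjusted p = 0.0592), and 97.3% of its exon bases are shared.

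The medians of most remaining lists lay close to that of all genes. Median log2 fold changes were -0.02 for photosynthesis, -0.00 for the circadian clock, 0.01 for salicylic acid and pipecolate defence, -0.01 for NLR immune receptors and -0.02 for reference genes, with no call in any of them. Their shares with an unadjusted p under 0.05 were, in that order, 2.38%, 33.3%, 8.7%, 25% and 8.33%, against 13.5% of all genes. By DESeq2 or with loess offsets 1 NLR gene was called higher. The fit without WT replicate 3 called 1 gene higher in each of the NLR and salicylic acid lists. Phosphate starvation genes were positive in 16 of 18 with a median of 0.27, and glucosinolate genes in 25 of 28 with a median of 0.12, again without a call. Over all genes 46.3% were positive. The phosphate median was 0.16 without pwr replicate 2, 0.18 without hda9 replicate 2 and 0.52, with 2 calls, without pwr replicate 3, and the glucosinolate median was 0.067 without hda9 replicate 1. The 13 tested jasmonate output genes had a median of -0.69 that ran from -1.85 to 0.27 over the alternatives. With only the 6 mutant libraries 8 genes of this list passed the filter, with a median of 0.13. The low end was the fit without pwr replicate 2 and the high end the fit without hda9 replicate 3, and the median was -1.18 without hda9 replicate 1, -1.35 without hda9 replicate 2, -0.26 without pwr replicate 3 and -0.32 with pwr replicate 1 left out. In hda9 replicate 3 TAT3, a tyrosine aminotransferase gene, reached 47.0 CPM, against 11.5 and 0 CPM in the other hda9 libraries.

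**Figure D4:**
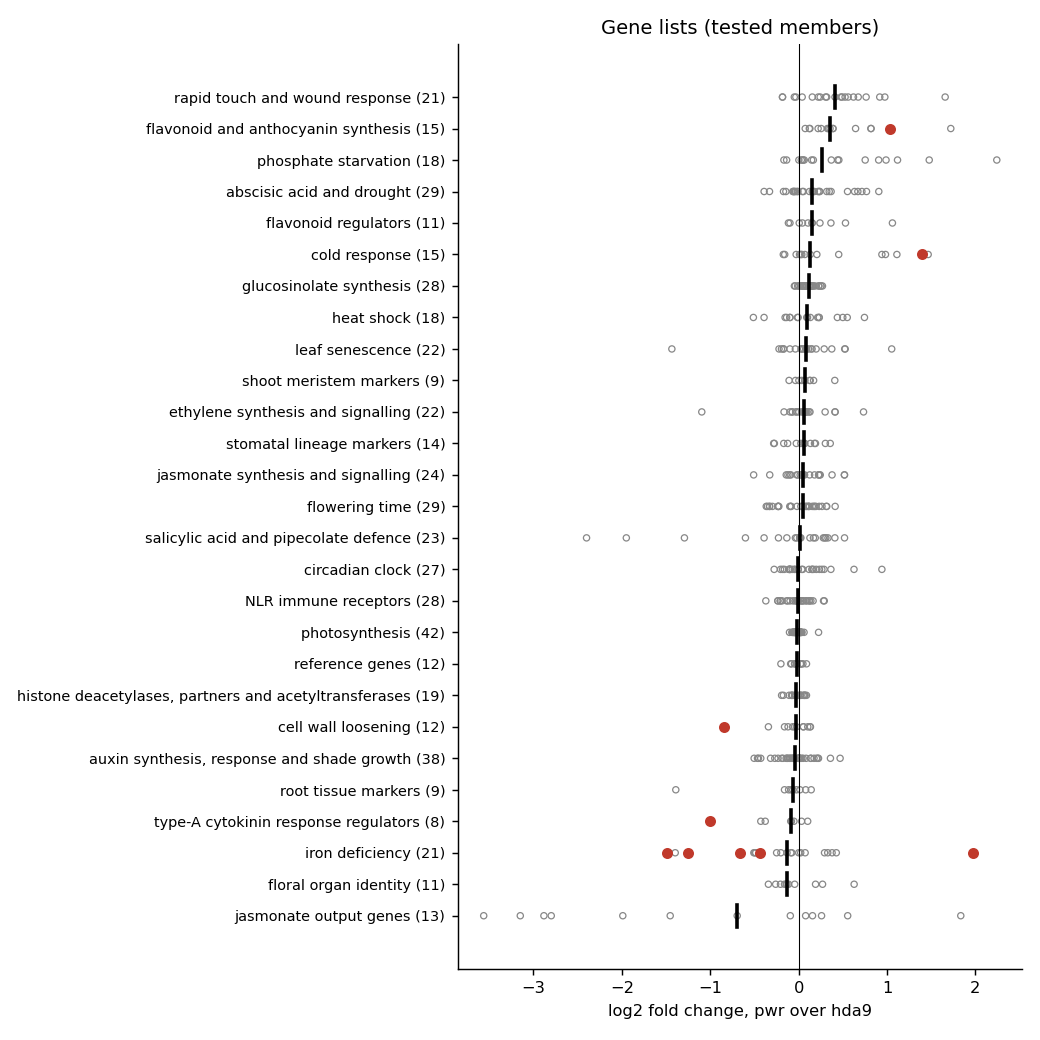
Log2 fold change, pwr over hda9, of every tested member of 27 gene lists (points, called members in colour) with each list's median (bar). The medians lie near 0 for most lists. They are 0.36 for flavonoid synthesis, 0.41 for touch and wound genes, 0.27 for phosphate starvation and -0.69 for jasmonate output genes. Of the called members 5 are in the iron list.

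The share of called genes was also taken near the mutated genes. HDA9 and PWR both lie on chromosome 3. Within 1000 kb on either side of HDA9, 3 of 180 tested genes were called (1.67%, against 0.421% of all genes): AT3G43670, XTH31 and UGT76E11, all higher in pwr. Within 1000 kb of PWR, 3 of 459 were called (0.654%): BCS1 and CHX20 were higher in pwr and DWF4 lower. With windows of 500 kb the shares were 1.16% around HDA9 (1 gene of 86) and 0.394% around PWR (1 of 254). With windows of 2000 kb they were 1.54% and 1.03%, and the genes called around PWR then included BHLH38, LSU1 and ABCG19. These wider windows overlap, and CYP71A25, CYP71A21 and AT3G49160 count in both.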

How the data were processed

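Per the labels' protocols, stranded polyA libraries were made with dUTP. The authors deposited whole-number read counts per gene, not normalized, and the submitters' processing notes name HISAT2 and TAIR10. The counting tool, its strand setting and the treatment of duplicates are not given in the sources used here. Names and positions came from RefSeq (assembly TAIR10.1), which matched 28932 of 29420 identifiers. Counts were tested with edgeR 4.0.16 in R 4.3.3 (filterByExpr, TMM, quasi-likelihood F test, genotype as the only term over all 9 libraries), with Benjamini-Hochberg adjustment over 20171 genes and calls at an adjusted p under 0.05. The SE of a log2 fold change was taken as its size over the root of its F value. Alternatives used DESeq2 1.42.0, limma 3.58.1 loess offsets and other fits. The steps were tested on simulated counts. Named genes were HDA9, PWR, the 12 largest rises and falls among called genes with a symbol, mean log2 CPM of at least 1 and groups that do not overlap (only 11 falls qualified), up to 4 called members per list, and FLC, FT, AGL19 and SOC1. The comparison, members and lists were chosen with earlier results of these data known.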

Additional observations from a re-analysis of the deposited data

How the results depend on the processing

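All 85 called genes kept their direction in each of the 17 alternative fits, but with groups that did not overlap a reversal was hardly possible. The count of called genes, 85, was 184 by DESeq2 (140 higher and 44 lower in pwr, 36 with a log2 fold change of at least 1 in size), 158 with loess offsets (115 higher, 43 lower) and 179 with no low-count filter (140 higher, 39 lower, 33 of that size). With only the 6 mutant libraries it was 111, of which 62 were among the 85, and 94 were higher and 17 lower. Leaving out 1 library gave 9 to 252 called genes, 6 to 163 higher, 2 to 89 lower and 5 to 41 with a log2 fold change of at least 1 in size. The causes were not tested. AGL19, which was not called, ranged from a log2 fold change of -0.25 to 0.090 when 1 library was left out, positive without hda9 replicate 2. With the replicate number as a block 113 genes were called, 70 of them among the 85, and FRO3, GRF11, DFR and ARR6 missed the threshold (adjusted p from 0.0527 to 0.0687). Deviations of same-numbered pwr and hda9 libraries from their group means had correlations of -0.221, -0.189 and -0.241. Those of differently numbered libraries ran from -0.066 to 0.231. Deviations from a mean of 3 libraries depend on each other, so these values cannot show whether the numbers pair the samples. Upper-quartile factors ended the calls of SCPL31 and DWF4, and the fit with only the 6 mutant libraries those of GRF11, AGP7 and CGLD27.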

Other observations

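Several called genes of known function belong to none of the lists, and they are named here after their values were seen. BCS1 (also OM66), an AAA protein of the outer mitochondrial membrane, had 68.8, 62.9 and 56.1 CPM in pwr, against 35.8, 35.9 and 36.1 CPM in hda9, and averaged 26.8 ± 5.3 CPM in WT (SD, n = 3). Its log2 fold change was 0.80 (SE 0.11, adjusted p = 0.0186), and both mutants were above WT. MKK9, a MAP kinase kinase of stress signalling, averaged 86.0 ± 5.0 CPM in pwr, 54.2 ± 6.0 CPM in hda9 and 40.8 ± 8.4 CPM in WT, a log2 fold change of 0.68 (adjusted p = 0.0376). DOGT1 (UGT73C5), a glucosyltransferase that acts on brassinosteroids and on a fungal toxin, averaged 68.7 ± 9.2 CPM in pwr, 42.7 ± 0.88 CPM in hda9 and 44.0 ± 5.8 CPM in WT, a log2 fold change of 0.68 (adjusted p = 0.0205).

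SIP1 (raffinose synthase RS5) had 47.4, 41.8 and 42.9 CPM in pwr, against 30.1, 31.4 and 26.4 CPM in hda9, and averaged 58.2 ± 2.5 CPM in WT, a log2 fold change of 0.57 (adjusted p = 0.0151). SIGE (SIG5), a sigma factor that directs chloroplast transcription, averaged 52.9 ± 8.5 CPM in pwr, 33.0 ± 3.7 CPM in hda9 and 41.3 ± 2.4 CPM in WT, with 0.66 (adjusted p = 0.0337). AGO7, the argonaute protein of trans-acting small RNAs, averaged 31.1 ± 1.9 CPM in pwr, 21.8 ± 1.4 CPM in hda9 and 29.9 ± 0.4 CPM in WT, with 0.51 (adjusted p = 0.0204). BOP2, which patterns leaves, averaged 55.3 ± 0.8 CPM in pwr, 43.4 ± 2.0 CPM in hda9 and 40.9 ± 1.1 CPM in WT, with 0.34 (adjusted p = 0.0231; 18.2% of its exon bases are shared). AT5G11330 had 75.1, 84.9 and 83.1 CPM in pwr, against 52.6, 42.1 and 39.7 CPM in hda9, and averaged 86.1 ± 4.6 CPM in WT, with 0.84 (adjusted p = 0.0033), and was the one gene of this section called in all 9 fits without 1 library. The others lost their calls without pwr replicate 1, with adjusted p of up to 0.174.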
